A study of Saccharomyces cerevisiae with 2 samples.

Results

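Xrn1p-sensitive Unstable Transcripts (XUTs) are described here in RNA-seq of 2 strains of the budding yeast *S. cerevisiae*. The rule took every entry of the deposited table whose identifier is a number, the letter F or R, a hyphen and a second number, which gave 1658 XUTs of 9633 transcripts. No measured value entered this rule. The table names CUTs and SUTs, and these entries are read as XUTs from the form of their identifiers. One library came from *trf4*∆ and 1 from *xrn1*∆ *trf4*∆, both in the BY4741 background and both from exponentially growing asynchronous cultures in the rich medium YPD. *TRF4* is thus deleted in both strains, and every comparison below is of *XRN1* deletion in cells that already lack Trf4p. Each strain has a single library, so no difference has a replicate check and no p-value is given.

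XUTs are long non-coding RNAs made by RNA polymerase II. They resemble mRNAs in being capped and polyadenylated, many of them lie antisense to protein-coding genes, and they are known for piling up in cells that lack Xrn1p, the cytoplasmic exoribonuclease that digests decapped RNA from its 5′ end. The other unstable class of yeast lncRNA, the CUTs, is instead marked for the nuclear exosome by the TRAMP complex, of which Trf4p is a poly(A) polymerase, and SUTs are non-coding transcripts that are seen in wild type cells. Since the class is named for its accumulation without Xrn1p, a higher XUT level in *xrn1*∆ *trf4*∆ is not independent evidence of its direction.

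A single XUT is annotated in the R64 assembly, and it shows what such an identifier stands for. XUT 2F-154 is TBRT, on chromosome II of R64 at 376610 to 378633, plus strand, and RefSeq describes it as an antisense lncRNA whose transcription represses *BAP2* and *TAT1*, which encode amino acid permeases. Its density times its annotated length of 2024 nt, divided by what a read is worth in each library (1 in *trf4*∆ and 0.626 in *xrn1*∆ *trf4*∆), gave 442 and 737 reads, both whole numbers. It covers 1824 of the 1860 nt of the *TAT1* ORF (376574 to 378433, minus strand). The first 100 nt of TBRT are shown because they place its start inside the 3′ part of the *TAT1* coding sequence. A second stretch of 100 nt (chromosome II, 378334 to 378433, plus strand) is shown because TBRT runs over the *TAT1* start codon, whose reverse complement is in capitals. Both sequences are from the RefSeq R64 genome.
TBRT, first 100 nt: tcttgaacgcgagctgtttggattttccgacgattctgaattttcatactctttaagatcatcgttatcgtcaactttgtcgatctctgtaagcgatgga
TBRT, over the *TAT1* start codon: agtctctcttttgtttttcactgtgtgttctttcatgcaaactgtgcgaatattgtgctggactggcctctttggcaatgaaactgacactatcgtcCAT

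TBRT had a density of 0.218 reads per nucleotide in *trf4*∆, and this was 0.228 in *xrn1*∆ *trf4*∆. Densities are the normalized read counts per nucleotide that the authors deposited. The log2 ratio, taken throughout as *xrn1*∆ *trf4*∆ over *trf4*∆, was 0.06 (95% interval -0.11 to 0.24), so the XUT with an annotated place did not differ between the libraries beyond counting error, under the authors' normalization. Only 15.3% of XUTs with a ratio had a lower one. On the opposite strand *TAT1* had densities of 2.88 and 3.55, 13.2 and 15.6 times those of TBRT. *TAT1* had 5357 reads in *trf4*∆ and TBRT 442, although all but 36 nt of *TAT1* lie within TBRT. Most reads of *TAT1* were thus not counted for TBRT, and at this locus the counting largely kept the strands apart. Whether some of the TBRT reads came from *TAT1*, and whether strands were kept apart at other loci, was not tested. *TAT1* had a log2 ratio of 0.30 (0.25 to 0.35), and *BAP2*, with densities of 6.19 and 10.8, one of 0.81 (0.78 to 0.84).

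The libraries were checked against their labels. Reads on *XRN1* numbered 7272 in *trf4*∆ and 111 without Xrn1p, and *TRF4* had 0 and 1. *LEU2*, *MET17* and *URA3*, which are absent from BY4741, were at 0 in both libraries, while *HIS3*, whose BY4741 allele is a partial deletion, was at 0.532 and 0.992. Genes specific to **a** cells (*MFA1*, *MFA2*, *STE2*) had densities from 3.41 to 7.21 and genes specific to alpha cells (*MF(ALPHA)1*, *MF(ALPHA)2*, *STE3*) from 0.00754 to 0.0701, and BY4741 is an **a** strain. The table holds no lengths for XUTs, so the smallest length that turns both densities into whole reads was used. It equalled the annotated length in 76.2% of 5633 ORFs and divided it in 99.4%, and it was 2024 nt for TBRT. XUT lengths and reads given below are therefore lower limits. On this basis the median XUT had 45 reads in *trf4*∆ (quartiles 17 and 114) and 143 in *xrn1*∆ *trf4*∆ (57 and 388). The median ORF had 253 and 772 on the same basis, and 316 and 978.5 by annotated length. Fewer than 10 reads were found for 242 XUTs in *trf4*∆ and for 50 in *xrn1*∆ *trf4*∆. Intervals given for single XUTs are 95% counting intervals (exact binomial, Clopper-Pearson), computed where both libraries have more than 3, and they cover counting error only.

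XUTs were rare RNAs in both strains. Their median density was 0.0744 reads per nucleotide in *trf4*∆ (quartiles 0.0370 and 0.152) and 0.161 in *xrn1*∆ *trf4*∆ (0.0794 and 0.314). These medians lay at the 17.2th and 17.9th percentile of ORFs, whose medians were 0.249 and 0.480. In *trf4*∆ the XUT median was also below that of CUTs (0.194), whereas in *xrn1*∆ *trf4*∆ it was close to it (0.187). XUTs took at least 2.36% of the reads counted on XUTs and on ORFs of known length in *trf4*∆, and at least 4.58% in *xrn1*∆ *trf4*∆. These shares are lower limits because XUT reads are. The order of XUTs by level was largely kept, with a Spearman rho of 0.79 between the libraries across 1647 XUTs, given as a description, since XUTs share their libraries and are not replicates. The scatter of XUT densities shows most points above the line of equal densities.

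**Figure D1:**
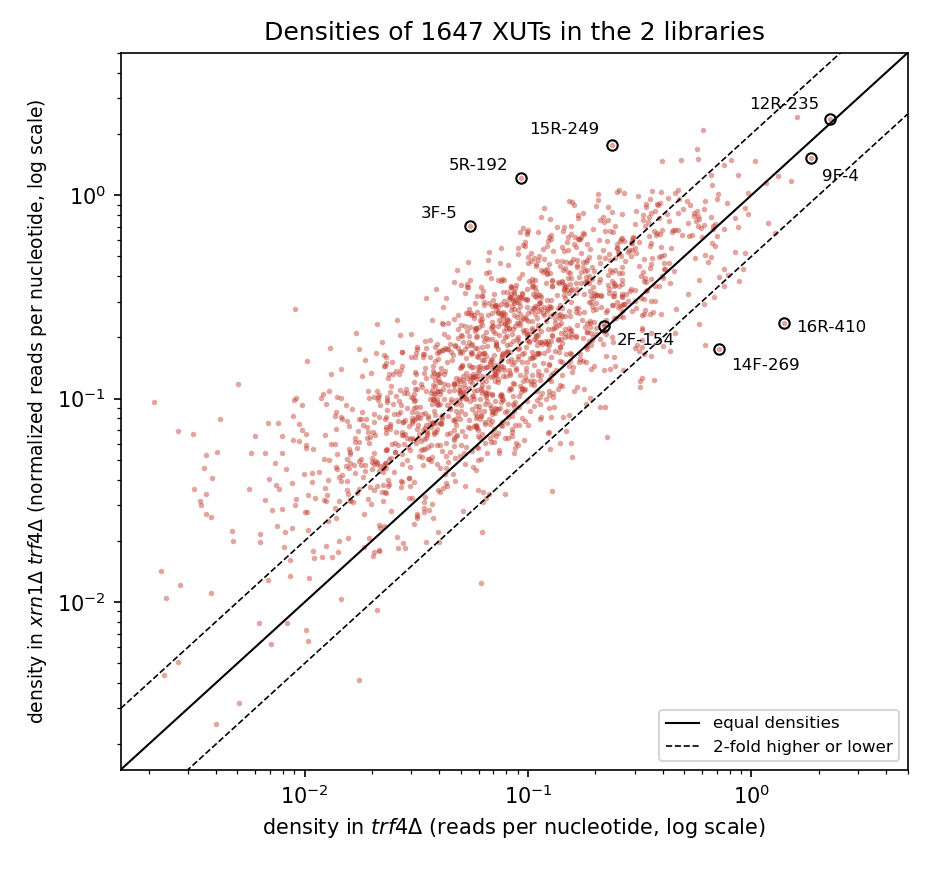
Density of each of 1647 XUTs in *trf4*∆ (x axis) and *xrn1*∆ *trf4*∆ (y axis), in normalized reads per nucleotide on log scales. Each point is 1 XUT, the solid line marks equal densities and the dashed lines 2-fold differences. In all, 1418 XUTs lie above the solid line, and circled XUTs are described in the text.

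A log2 ratio could be computed for 1647 XUTs, since the remaining 11 were at 0 in *trf4*∆. The middle of the class stood at 1.09 (95% interval from order statistics 1.03 to 1.14), or 2.13-fold, and the quartiles were 0.41 and 1.75. Intervals of medians given here and below cover the spread among XUTs of these libraries, which are not replicates of a strain. Of these XUTs 1418 (86.1%) were higher in *xrn1*∆ *trf4*∆, where 77.4% of all 9423 transcripts with a ratio were. By a rule of size, 890 XUTs (54.0%) were at least 2-fold higher, against 40.5% of all transcripts, and 33 of the 1647 at least 2-fold lower, against 6.53%. A 4-fold higher density was reached by 273 XUTs (16.6%), against 8.98% of all transcripts. The other 724 XUTs differed by less than 2-fold.

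These shares move with the scale chosen between the libraries. If the median ORF density is made equal in both libraries, all ratios shift by -0.94 on the log2 scale, and then 56.0% of XUTs were higher, against 42.5% of all transcripts. At least 2-fold higher were 293 XUTs (17.8%), against 10% of all transcripts, and at least 2-fold lower were 205, against 21%. With the trimmed mean of ORF log2 ratios set to 0 the shift is -0.78 and 62.3% were higher, against 49.3% of all transcripts. Both settings place the ORFs near 0 by construction, so a count under them gives positions relative to a typical ORF.

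Counting error, taken from reads by smallest length, left many single XUTs undecided. Of 1572 XUTs with more than 3 reads in each library, 1102 (70.1%) had an interval above 0, against 66.8% of 9088 transcripts with an interval, and 87 (5.53%) had an interval below 0, against 15.1%. For the other 383 the interval held 0. Intervals lay above 0 for 74.3% of ORFs and 72.9% of SUTs, both larger shares than that of XUTs. They lay below 0 for 13.0% of ORFs and 7.16% of SUTs. Set against the ORF median of 0.78, a position that no scaling changes, 602 XUTs (38.3%) had an interval above it, against 34.4% of all transcripts, and 347 (22.1%) below it, against 38.2%. The interval of the other 623 held it. Of 5529 ORFs with an interval, 2066 lay above the ORF median and 2181 below it. Of 782 SUTs these were 351 and 169. The median interval of a XUT was 0.97 wide on the log2 scale, against 0.40 for an ORF. Since such reads are lower limits, these widths are upper limits. So are the 383 and 623 undecided among the 1572 XUTs.

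**Figure D2:**
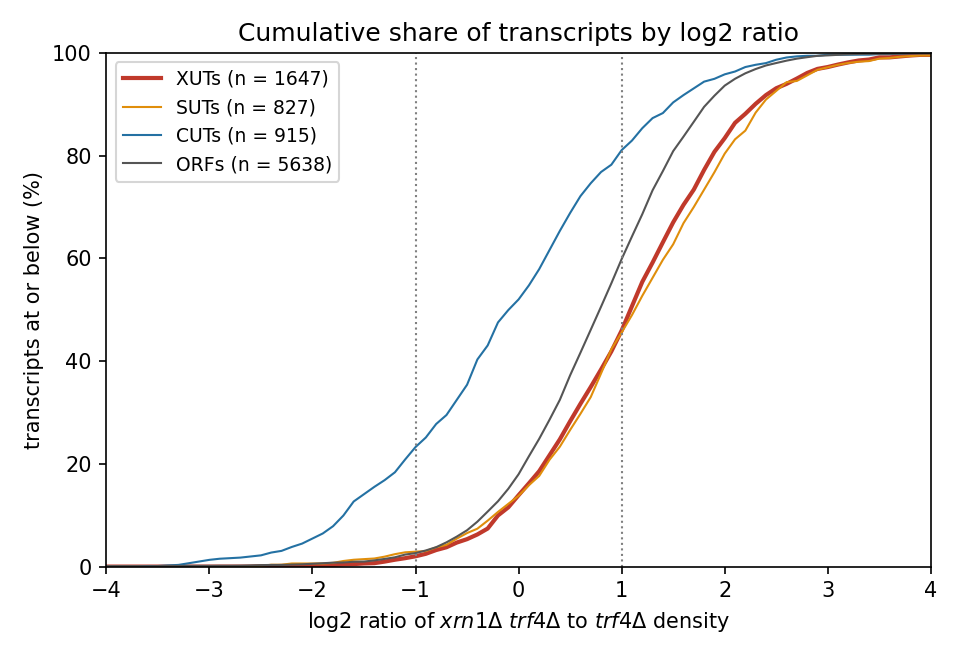
Cumulative share (%) of XUTs, SUTs, CUTs and ORFs at or below each log2 ratio (*xrn1*∆ *trf4*∆ over *trf4*∆), with dotted lines at 2-fold differences. The XUT curve runs along that of SUTs and lies to the right of the ORF and CUT curves, with medians of 1.09, 1.12, 0.78 and -0.09.

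The XUTs with the highest ratios were next examined among the 823 XUTs whose geometric mean density lay above the XUT median of 0.110. XUT 5R-192 had a density of 0.0929 in *trf4*∆ and 1.21 in *xrn1*∆ *trf4*∆, with 46 and 959 reads and a log2 ratio of 3.71 (3.28 to 4.17). XUT 3F-5 went from 0.0552 to 0.705, with 55 and 1122 reads and a log2 ratio of 3.68 (3.28 to 4.09). Both were thus over 8-fold higher even at the lower end of the interval. XUT 11F-209 and XUT 11F-210 carry consecutive numbers and had near-equal log2 ratios of 3.15 (2.88 to 3.44) and 3.17 (2.53 to 3.88), with densities of 0.0482 and 0.0386 in *trf4*∆ and 0.428 and 0.348 in *xrn1*∆ *trf4*∆. Whether they are neighbours on the chromosome or share reads was not tested. XUT 15R-451 had densities of 0.0538 and 0.468, XUT 7F-71 of 0.0467 and 0.374 and XUT 16F-95 of 0.0672 and 0.524. XUT 15R-249 differs from the others in that it was already at 0.237 in *trf4*∆, where it had 161 reads. Its density of 1.77 in *xrn1*∆ *trf4*∆ made it the fourth of all XUTs there, at a log2 ratio of 2.90 (2.67 to 3.14). These 8 XUTs had smallest lengths from 495 to 2367 nt and bore the leading numbers 3, 5, 7, 11, 15 and 16. In all, 45 XUTs (2.73%) had a log2 ratio of 3 or more, against 1.04% of all transcripts. Of the 45, 39 lie in the less dense part of the class. Their reads in *trf4*∆ differed widely, with 1 for some and 49 for another. The highest of all, XUT 7R-298 with 5.51, rests on 2 reads in *trf4*∆, against 146 in the other library.

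In the deposited densities 229 of 1647 XUTs were lower without Xrn1p, against 2128 of all 9423 transcripts and 1014 of 5638 ORFs. The 8 lowest ratios among the 823 denser XUTs are given here. XUT 16R-410 had a density of 1.40 in *trf4*∆, the fifth highest of all XUTs, and 0.235 in *xrn1*∆ *trf4*∆, with 459 and 123 reads and a log2 ratio of -2.58 (-2.87 to -2.29). XUT 14F-269 had 0.715 and 0.175, with a log2 ratio of -2.03 (-2.38 to -1.69). These 2 XUTs were at least 4-fold lower. XUT 7R-135 had densities of 0.226 and 0.0650, XUT 16F-145 of 0.622 and 0.183 and XUT 15F-18 of 0.367 and 0.124, with log2 ratios of -1.79, -1.76 and -1.57. XUT 9F-129 had 0.317 and 0.114, XUT 16R-59 had 0.318 and 0.122, and XUT 8R-22 had 0.324 and 0.127, with log2 ratios of -1.48, -1.38 and -1.36. The most reads any of them had in *trf4*∆ was 459, and 7 of the 8 had a smallest length between 324 and 435 nt. The exception was XUT 15F-18, with 986 nt. Of the 33 XUTs that were at least 2-fold lower, 29 had an interval below 0. The scatter of densities shows XUT 16R-410 and XUT 14F-269 well below the lower 2-fold line. With the median ORF density made equal, these XUTs lie lower by another 0.94.

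The most abundant XUTs of the 2 libraries were partly different ones. Of the 5 densest in *trf4*∆, 4 differed by less than 2-fold in the deposited densities and XUT 16R-410 was the lower one described above. Of the 5 densest in *xrn1*∆ *trf4*∆, 3 had log2 ratios from 1.56 to 2.90. XUT 12R-235 was the most abundant in *trf4*∆, with a density of 2.24, and had 2.36 in *xrn1*∆ *trf4*∆, with 3707 and 6220 reads and a log2 ratio of 0.07 (0.01 to 0.13). XUT 9F-4 had 1.85 and 1.53, with 9636 and 12675 reads and a log2 ratio of -0.28 (-0.32 to -0.24). At 5195 nt it also had the largest smallest length of any XUT. By reads from smallest lengths it held 5.34% of all XUT reads in *trf4*∆ and 2.18% in *xrn1*∆ *trf4*∆. XUT 13R-87 had 1.51 and 1.17 (log2 ratio -0.37). With the median ORF density made equal, these log2 ratios of XUT 12R-235, XUT 9F-4 and XUT 13R-87 were -0.87, -1.22 and -1.31. XUT 16R-366, with 1.60 and 2.41 (0.59), was the most abundant in *xrn1*∆ *trf4*∆. Also among the 5 highest there were XUT 3F-78, with densities of 0.608 and 2.09, and XUT 5F-239, with 0.572 and 1.69. Their log2 ratios were 1.78 and 1.56. A density above 1 read per nucleotide was reached by 10 XUTs in *trf4*∆ and 29 in *xrn1*∆ *trf4*∆, and one below 0.01 by 77 and 15. XUTs typical of the class were XUT 9R-145, with 0.104 and 0.222, XUT 12F-109, with 0.346 and 0.735, and XUT 7F-175, with 0.0807 and 0.171, each with a log2 ratio of 1.09.

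No XUT was at 0 in *xrn1*∆ *trf4*∆, and 11 of 1658 were at 0 in *trf4*∆. Of all 9633 transcripts, 148 were at 0 in *xrn1*∆ *trf4*∆ and 186 in *trf4*∆, 124 of them in both. Since XUTs are named for accumulation without Xrn1p, zeros in *trf4*∆ alone are not independent evidence of a difference. Of the 11 XUTs, 8 had more than 3 reads in *xrn1*∆ *trf4*∆. XUT 14R-348 had a density of 0.0472 there, with 19 reads. Set against 3 reads in the *trf4*∆ library, a density of 0.0119, this is 3.97-fold higher. On the same basis XUT 9F-185, with 0.0403, was 3.55-fold higher, and XUT 8F-245, with 0.0347, 2.92-fold. These folds put 3 reads in place of 0 and leave out counting error in *xrn1*∆ *trf4*∆, so they are not lower limits. The other 8 had 23 reads or fewer in *xrn1*∆ *trf4*∆.

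The excess of XUTs over ORFs was set against density. Across the class it came to 0.31 on the log2 scale, a difference of medians that a scaling of either library leaves as it is. It depends on the pseudocount, with which it was 0.25 at 0.01 and -0.036 at 0.1. XUTs were put into 5 groups of equal size by the geometric mean of both densities, and the other classes were cut at the same densities. From 0.0476 to 0.0846 reads per nucleotide XUTs had a median log2 ratio of 1.09 and ORFs one of 1.11. From 0.0846 to 0.142 these medians were 1.14 and 1.15. In the next group, up to 0.253, they were 1.15 and 1.07, and above 0.253 they were 0.79 and 0.72. At these densities XUTs and ORFs thus lay within 0.08 of each other. In the group of lowest density, below 0.0476, the medians were further apart, at 1.28 (quartiles 0.59 and 2.03) over 330 XUTs and 0.66 (-0.14 and 1.41) over 326 ORFs. In that group 62.1% of XUTs and 35.0% of ORFs were at least 2-fold higher. Values there rest on few reads, with a median density of 0.0191 for XUTs in *trf4*∆.

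**Figure D3:**
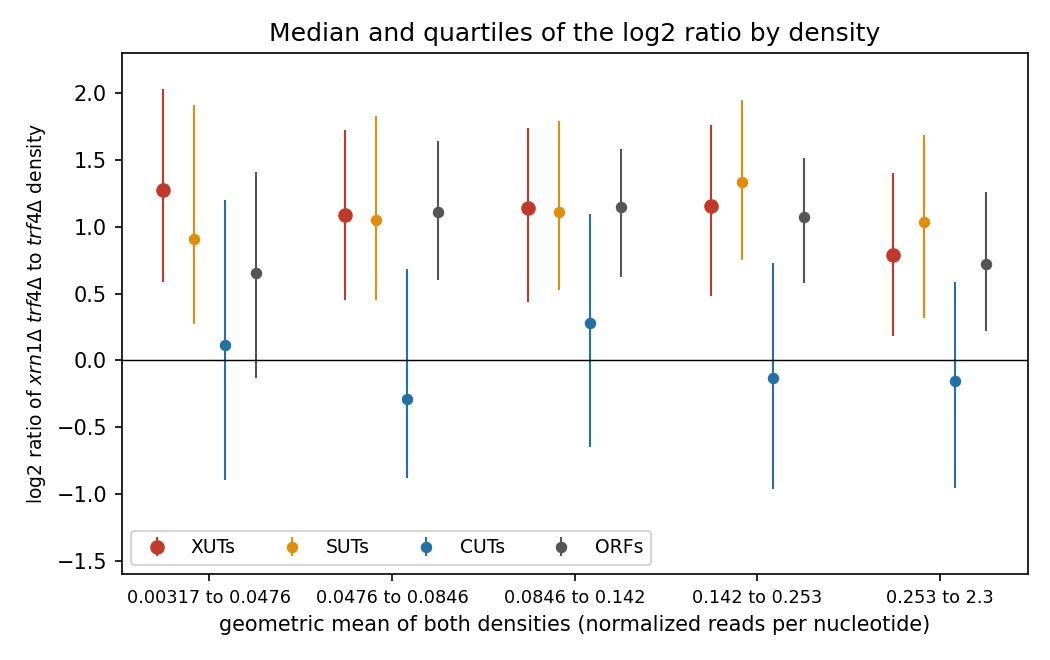
Median (points) and quartiles (bars) of the log2 ratio (*xrn1*∆ *trf4*∆ over *trf4*∆) for XUTs, SUTs, CUTs and ORFs in 5 groups of geometric mean density, cut so that each holds 329 or 330 XUTs. XUTs and ORFs differ by 0.62 in the lowest group and by less than 0.08 in the others, while CUTs lie 0.86 to 1.38 below XUTs.

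Against the other non-coding classes, XUTs lay close to SUTs and above CUTs. SUTs had a median log2 ratio of 1.12 and 54.4% of them were at least 2-fold higher, near the 54.0% of XUTs. By density, the difference between XUTs and SUTs went from 0.37 in the lowest group to -0.24 in the highest. CUTs, the class defined by nuclear decay, had a median of -0.09, and 18.9% of them were at least 2-fold higher and 23.3% at least 2-fold lower. XUT medians exceeded those of CUTs by 0.86 to 1.38 in the 5 density groups. With 1 library per strain these differences between classes were not tested.

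Longer XUTs had higher ratios. Below 400 nt of smallest length the median log2 ratio was 0.93 (95% interval 0.83 to 1.06) over 522 XUTs. It was 1.02 (0.91 to 1.10) over 564 XUTs of at least 400 and under 800 nt and 1.20 (1.10 to 1.34) over 401 XUTs of at least 800 and under 1600 nt. Over the 160 XUTs of 1600 nt or more it was 1.52 (1.33 to 1.71), and 96.2% of these were higher in *xrn1*∆ *trf4*∆. The share at least 2-fold higher went from 48.1% in the shortest group through 50.7% and 59.6% to 71.2% in the longest, where 40.5% of all transcripts were. For ORFs, also grouped by smallest length, it was 46.8%, 45.4%, 40.7% and 30.9%, so the shortest group of XUTs was near the same group of ORFs. XUTs at least 2-fold lower numbered 19 (3.64%), 12 (2.13%), 2 (0.499%) and 0 in the same order. For ORFs these shares were 3.18%, 2.085%, 2.80% and 2.5%, so the shorter XUT groups were near the ORFs. XUTs of 1600 nt or more were also somewhat denser, at 0.0926 in *trf4*∆ against 0.0702 in the shortest group. XUTs above the median density as a whole had a lower median ratio (1.03) than those below it (1.15).

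The same order by length was seen on either side of the XUT median density. Among the less dense XUTs the medians were 1.09, 1.09, 1.28 and 1.55 from the shortest to the longest group. Among the denser ones they were 0.73, 0.83, 1.14 and 1.52. The other classes were sorted by smallest length alone, without a split by density. ORFs had the opposite order, with medians of 0.92, 0.89, 0.78 and 0.67. SUTs had 1.0, 0.95, 1.23 and 1.51, so the highest ratios of SUTs were also in the longest group. CUTs, of which only 16 reached 1600 nt, had -0.26, -0.13, 0.37 and 0.51. Part of the XUTs and ORFs in the shorter groups must be longer than listed, since the smallest length can be a fraction of the true one. Restricted to XUTs with a mean of at least 30 reads per library, a setting chosen after the data were seen, the medians by length were 0.88, 1.02, 1.19 and 1.52.

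**Figure D4:**
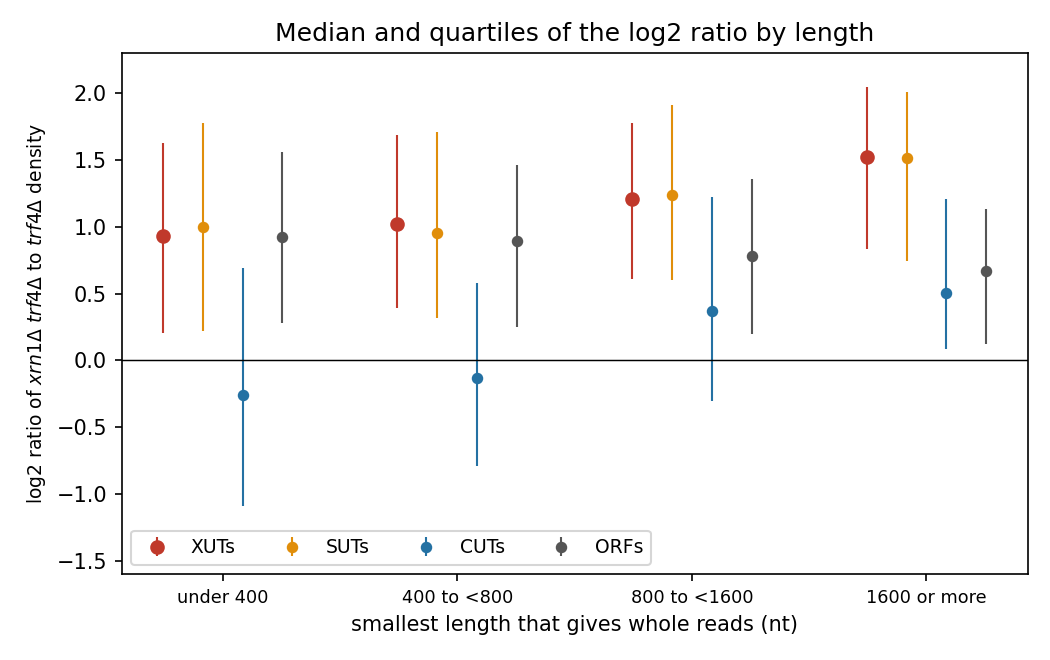
Median (points) and quartiles (bars) of the log2 ratio (*xrn1*∆ *trf4*∆ over *trf4*∆) for XUTs, SUTs, CUTs and ORFs in 4 groups of smallest length in nt. XUT medians go from 0.93 below 400 nt to 1.52 at 1600 nt or more, and ORF medians from 0.92 to 0.67.

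The identifiers allowed XUTs to be sorted further. The leading number takes 16 values, 1 to 16, the number of nuclear chromosomes, and the letter is F for 846 XUTs and R for 812. The table does not explain these fields. For TBRT, the leading number 2 and the letter F go with chromosome II and the plus strand, and its last number lies 45.3% along the numbers, which end at 340, while its start lies 46.3% along the chromosome. If each leading number is the chromosome, XUTs numbered from 11.4 to 16.1 per 100 kb of R64. The median log2 ratio was 1.09 (quartiles 0.38 and 1.77) over 839 XUTs with F and 1.08 (0.45 and 1.71) over 808 with R. The medians of the 16 leading numbers ran from 0.67 (1, over 37 XUTs) to 1.37 (3, over 42 XUTs). Those 2 groups are among the smallest, and for each of the 16 numbers the quartiles enclosed the class median of 1.09. These are descriptions of 1 library per strain, and no difference was tested.

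**Figure D5:**
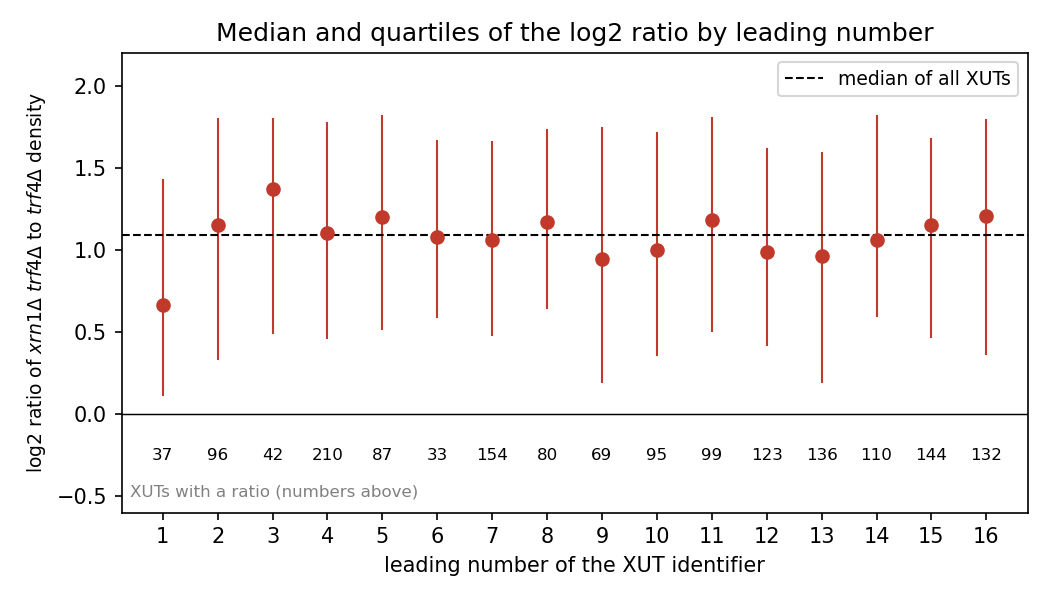
Median (points) and quartiles (bars) of the log2 ratio (*xrn1*∆ *trf4*∆ over *trf4*∆) for XUTs by the leading number of their identifier, with the number of XUTs printed under each. The medians lie between 0.67 and 1.37 around the class median of 1.09 (dashed line), and every bar lies above 0.

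The genes of the decay pathways that act on these RNAs were followed from a list. The cytoplasmic part held *XRN1*, decapping factors, nonsense-mediated decay factors and the Ski complex with *SKI7*. Apart from *XRN1* itself, all 13 genes had a higher deposited density without Xrn1p, as did 82.0% of ORFs, and 9 lay above the ORF median of 0.78. At least 2-fold higher were 6 of the 13, near the 40.1% of ORFs. The nuclear part held TRAMP, exosome, Rat1p and Nrd1-Nab3-Sen1 factors. Of its 11 genes with a ratio 10 were higher, where 82.0% of ORFs were, and 3 were at least 2-fold higher, where 40.1% of ORFs were. The same 3 alone lay above the ORF median. They encode TRAMP subunits, and they and *MTR4* are named here after their values were seen. *TRF5*, which encodes the other poly(A) polymerase of TRAMP, had a log2 ratio of 1.01 (0.77 to 1.27). *AIR1* and *AIR2*, which encode its zinc knuckle proteins, had 1.85 (1.67 to 2.04) and 1.87 (1.69 to 2.06). *MTR4*, the helicase of TRAMP, was the single gene of the 11 that was lower, with -0.49 (-0.56 to -0.41). Among the 10 higher genes, the intervals of *RRP6*, *RAT1*, *NAB3* and *SEN1*, also named after their values were seen, held 0. *DIS3*, named likewise, had 0.10 (0.02 to 0.18).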

How the data were processed

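The authors prepared 1 library of rRNA-depleted total RNA per strain, read 50 nt by SOLiD sequencing and mapped these to S288c using Bowtie 0.12.7 with at most 3 mismatches. From uniquely placed reads the authors deposited a density signal per transcript, in reads per nucleotide normalized on total ORF reads. The annotation release and the use of strand are not given in the sources used here. Both value columns were used, and 0 were left out.

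From these deposited coverage values, log2 ratios of *xrn1*∆ *trf4*∆ to *trf4*∆ were computed without a pseudocount. For 5738 of 5770 ORFs of R64 (99.4%), density multiplied by length gave whole reads within 0.01, 1 read being worth 1 in *trf4*∆ and 0.626 in *xrn1*∆ *trf4*∆. Reads of other transcripts come from the smallest length, up to 20000 nt, that makes both densities whole. Such reads are not independent molecules. With single libraries no test was run, and the log2 ratio of 1 is a rule of size. Functions were tested on simulated data. XUTs named are the 8 highest and 8 lowest ratios above the median density, the 5 densest per library, 3 nearest the median ratio, 3 at 0 in 1 library. TBRT, 7R-298 and 13R-422 were named after their values were seen. Members and lists were chosen with earlier results of these data known. Alternatives were pseudocounts, a density filter, 3 scalings and the mean. Scripts ran in Python 3.11.15 with SciPy 1.17.1, pandas 2.3.3, matplotlib 3.10.9 and NumPy 2.4.6.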

Additional observations from a re-analysis of the deposited data

How the results depend on the processing

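The XUT median log2 ratio of 1.09 moved to 0.96 with a pseudocount of 0.01 and to 0.47 with one of 0.1, to 0.15 with the median ORF density made equal, to 0.31 with the trimmed mean of ORF log2 ratios set to 0, and to 1.01 with equal sums of ORF densities. The share of higher XUTs was 56.0% with equal ORF medians and 62.3% with the trimmed mean, from 86.1% at first. The number at least 2-fold higher moved from 890 to 301 with a pseudocount of 0.1 (18.2% of XUTs against 20.3% of ORFs, where these were 54.0% and 40.1% without one), to 293 with equal ORF medians and to 386 with the trimmed mean. The excess over ORFs turned from 0.31 to -0.036 with a pseudocount of 0.1, which exceeds the median XUT density in *trf4*∆ and shrinks the ratios of low transcripts. A mean density of at least 0.05 kept 1349 XUTs, of which 722 were at least 2-fold higher, with a median of 1.08. A mean of at least 30 reads per library, chosen after the data were seen, kept 1337, of which 727 were at least 2-fold higher, with a median of 1.10. The mean in place of the median gave an excess over ORFs of 0.32. Of the 26 XUTs with a ratio that the rule or the annotation names, all left their counting interval with equal ORF medians and with the trimmed mean, 19 with a pseudocount of 0.1 and 2 with equal sums. No paired analysis was possible because each strain has 1 library. Depth limits the single XUT, since 242 had fewer than 10 reads in *trf4*∆.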

Other observations

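XUTs whose last number lies among the lowest or highest 5% of their leading number and letter may lie near chromosome ends, if these numbers follow position, which rests on TBRT alone. These 229 XUTs had median densities of 0.0567 in *trf4*∆ and 0.125 in *xrn1*∆ *trf4*∆, against 0.0764 and 0.166 for the other 1429. Their median log2 ratio was 1.21 (quartiles 0.51 and 1.91) over 225 XUTs, against 1.07 (0.38 and 1.71) over 1422, and 58.7% and 53.3% were at least 2-fold higher, where 40.5% of all transcripts were. Of the 11 XUTs at 0 in *trf4*∆, 4 were in this group, among them XUT 13R-422, which bears the highest number of its set and had 23 reads in *xrn1*∆ *trf4*∆. These groups were formed after the data were seen, and the differences were not tested.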
